A study of Mus musculus with 6 samples.

Results

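Chromatin accessibility was followed at 39 genes of central carbon, mitochondrial and lipid metabolism in tumor-infiltrating CD8 T cells. They comprised 13 genes of glycolysis, 3 of pyruvate and lactate handling, 6 of the citrate cycle, 4 of mitochondrial maintenance, 5 of fatty acid oxidation, 5 of fatty acid and sterol synthesis and 3 of lipid uptake and lipid peroxide defence. A region of the count table was assigned to a gene when its midpoint lay inside the gene body, or when it was intergenic and that gene was the nearest protein-coding gene within 100 kb. By this rule 206 of the 74686 regions belonged to 37 of the 39 genes, and Pfkl and Cd36 had none. Of the 206 regions, 124 lay inside a gene and 82 were intergenic, and 50 lay within 2 kb of either end of their gene (end regions), apart from the other 156. Of the end regions, 6 also lay within 2 kb of an end of another gene.

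The assay was ATAC-seq, in which a transposase cuts and tags open DNA. OT1 CD8 T cells, whose transgenic receptor recognises a peptide of ovalbumin, were isolated from B16-OVA-GP61 tumors by a sort for CD8 and CD45.1, a congenic allele commonly used to tell transferred T cells from those of the host. B16 is a mouse melanoma line, here carrying ovalbumin and the GP61 epitope. One group of 3 libraries came from tumors without SMARTA CD4 T cells and the other group of 3 from tumors with them. SMARTA cells are CD4 T cells with a transgenic receptor for GP61. Both groups thus share the OT1 cells, the tumor line and the sort. The sources used here do not give host strain, age, cell numbers, the time of harvest or any pooling of animals. Nothing in the labels says that replicates came from separate mice, so each p-value reflects spread between libraries that may be technical.

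Total counts ran from 16595779 to 27182809 per library, and the median region held 62 to 114 reads. On all regions, the first principal component separated the groups and held 58.3% of the variance. With-SMARTA replicate 2 stood apart from the other 2 libraries of its group on the second component, which held 19.2%. All 8 CD8 T cell markers examined had a peak at an annotated start in every library. The summed end-region level of these markers was 710 to 731 CPM (reads per region scaled to a common library total) without SMARTA cells and 724 to 777 CPM with them. The sum for B16 melanoma markers was 155 to 172 CPM without and 175 to 191 CPM with SMARTA cells. It came from 3 of 7 genes (Mlana, Pmel and Mitf, with start peaks in all 6 lists), whereas Tyr, Dct and Tyrp1 had a start peak in 0 of 6 lists and Sox10 in 1. The CD4 T cell sum was 57.9 to 69.1 CPM without and 66.8 to 76.6 CPM with, from 1 of 3 genes with an end region. Cd4 and Zbtb7b had start peaks in all 6 lists and Foxp3 in 0. Myeloid markers summed to 67.2 to 82.2 CPM without and 69.0 to 73.4 CPM with, from 4 of 7 genes with an end region. Itgam and Cd14 had start peaks in all 6 lists and Cd68 in 5, while Csf1r, Lyz2, Adgre1 and Clec7a had them in 0. The B cell sum was 6.29 to 10.1 CPM without and 9.93 to 10.8 CPM with, and 0 of 5 markers had a start peak in all 6 lists. Whether the melanoma, CD4 T cell and myeloid marker sums come from such cells was not tested. Nor was any part of such cells in the results on metabolic genes.

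Activated T cells take up glucose and break it down through glycolysis, and lactate dehydrogenase turns much of the resulting pyruvate into lactate even when oxygen is present. Pyruvate that enters mitochondria feeds the citrate cycle, and its entry is limited by pyruvate dehydrogenase kinases. Memory and long-lived CD8 T cells draw more on mitochondrial respiration and fatty acid oxidation, and loss of mitochondrial function is a known feature of exhausted CD8 T cells in tumors. Accessibility is not expression: an open promoter or enhancer need not mean more transcript, and none was measured in these libraries.

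Below, opened and closed denote regions higher or lower with SMARTA cells at an adjusted p under 0.05 (edgeR's quasi-likelihood test, Benjamini-Hochberg over all 74686 regions). Levels are log2 CPM per region. Counts at an unadjusted p under 0.05 are given for members alone. The share of all regions at that cut was not taken, so these counts cannot be read as particular to the members. Fold changes are log2 differences from the edgeR model, with SMARTA minus without, and can depart slightly from differences of the printed levels. Their ± SE was worked back from the fold and the test's F statistic, with n = 3 libraries per group. Since regions are mostly of 1 width, levels of different regions can be read side by side as amounts per region. The exceptions among the members are 5 regions wider than 400 bases, which can collect more reads.

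The sequences of 3 promoters are printed because they belong to the members whose annotated start opened. Each is the 250 bases before an annotated start, 5′ to 3′ on the gene's strand, from RefSeq (GRCm38.p6). Capitals mark the core of the hypoxia response element (ACGTG, bound by HIF factors, on either strand) and the GC box (GGGCGG, bound by Sp1-like factors, on either strand). Pdk1 lies at chr2:71872974-71873223 on the plus strand, Aldoa at chr7:126799255-126799504 on the minus strand, and Hk1, at its start inside the gene, at chr10:62340422-62340671 on the minus strand. The Hk1 promoter was added after its value was seen.
Pdk1: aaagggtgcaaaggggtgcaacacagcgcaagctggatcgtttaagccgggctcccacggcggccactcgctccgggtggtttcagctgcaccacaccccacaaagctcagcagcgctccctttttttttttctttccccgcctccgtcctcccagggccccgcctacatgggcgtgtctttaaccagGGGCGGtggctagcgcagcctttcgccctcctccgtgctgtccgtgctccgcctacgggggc
Aldoa: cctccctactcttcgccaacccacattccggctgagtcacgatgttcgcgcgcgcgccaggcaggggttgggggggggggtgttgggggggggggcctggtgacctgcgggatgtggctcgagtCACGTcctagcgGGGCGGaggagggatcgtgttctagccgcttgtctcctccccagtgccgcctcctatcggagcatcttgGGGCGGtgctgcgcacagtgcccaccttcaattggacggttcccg
Hk1: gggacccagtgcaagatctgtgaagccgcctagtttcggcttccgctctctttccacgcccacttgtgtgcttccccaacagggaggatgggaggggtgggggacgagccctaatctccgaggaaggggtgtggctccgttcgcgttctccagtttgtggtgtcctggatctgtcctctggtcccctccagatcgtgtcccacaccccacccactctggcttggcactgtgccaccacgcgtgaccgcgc
These windows were 64.0%, 67.6% and 62.8% G+C. The Pdk1 window held 1 GC box, 62 bases before the start, and 0 HIF cores. The Aldoa window held a HIF core 126 bases before the start and GC boxes at 114 and 45 bases before it, and an AP-1 match, not in capitals, at 218 bases before it. None of the 7 motifs searched was found in the Hk1 window. Among 58 windows of 37 member genes, 31.0% held ACGTG, against 16.6% of all 32851 windows. GGGCGG was in 58.6% of the member windows and 32.7% of all. The other motifs searched on both strands, with the share of member windows and of all windows, were CACGTG (8.62% and 6.02%; it contains the HIF core), CCGGAAG for ETS factors (3.45% and 6.91%), TGACGTCA for CREB (8.62% and 1.55%), TGANTCA for AP-1 (3.45% and 6.75%) and the sterol element TCACCCCAC (1.72% and 0.496%). The member windows include those of genes whose start did not open, and all windows were not matched to them for G+C. The motifs were settled after the matches were seen. Windows of 1 gene with several starts can overlap, and a match describes letters, not binding.

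Across the metabolic genes, most regions were not called, and the called ones were split between both directions. Of the 206 regions, 14 opened and 10 closed. That is 11.7%, against 15.1% of all regions (4.68% opened, 10.4% closed). The median log2 fold of the 206 was 0.07 and that of all regions 0.01, and single folds ran from -2.13 to 1.38. Groups did not overlap in 28.2% of the member regions, against 34.2% of all: the SMARTA libraries were higher in 38 (15.7% of all regions) and lower in 20 (18.5% of all). DESeq2 called 13 opened and 10 closed, and 15.8% of all regions. At all 24 called regions the groups did not overlap, so separate groups at a called region, as given below, are no further evidence. The 24 calls fell in 15 genes. Hk1, Hk2, Aldoa, Pgam1, Eno1, Ldha, Pdk1, Ppargc1a, Mfn2 and Srebf2 had opened regions alone. Pfkp, Pfkfb3, Acaca and Fabp5 had closed regions alone, and Ogdh had both. In the other 22 genes with a region, none was called.

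**Figure D1:**
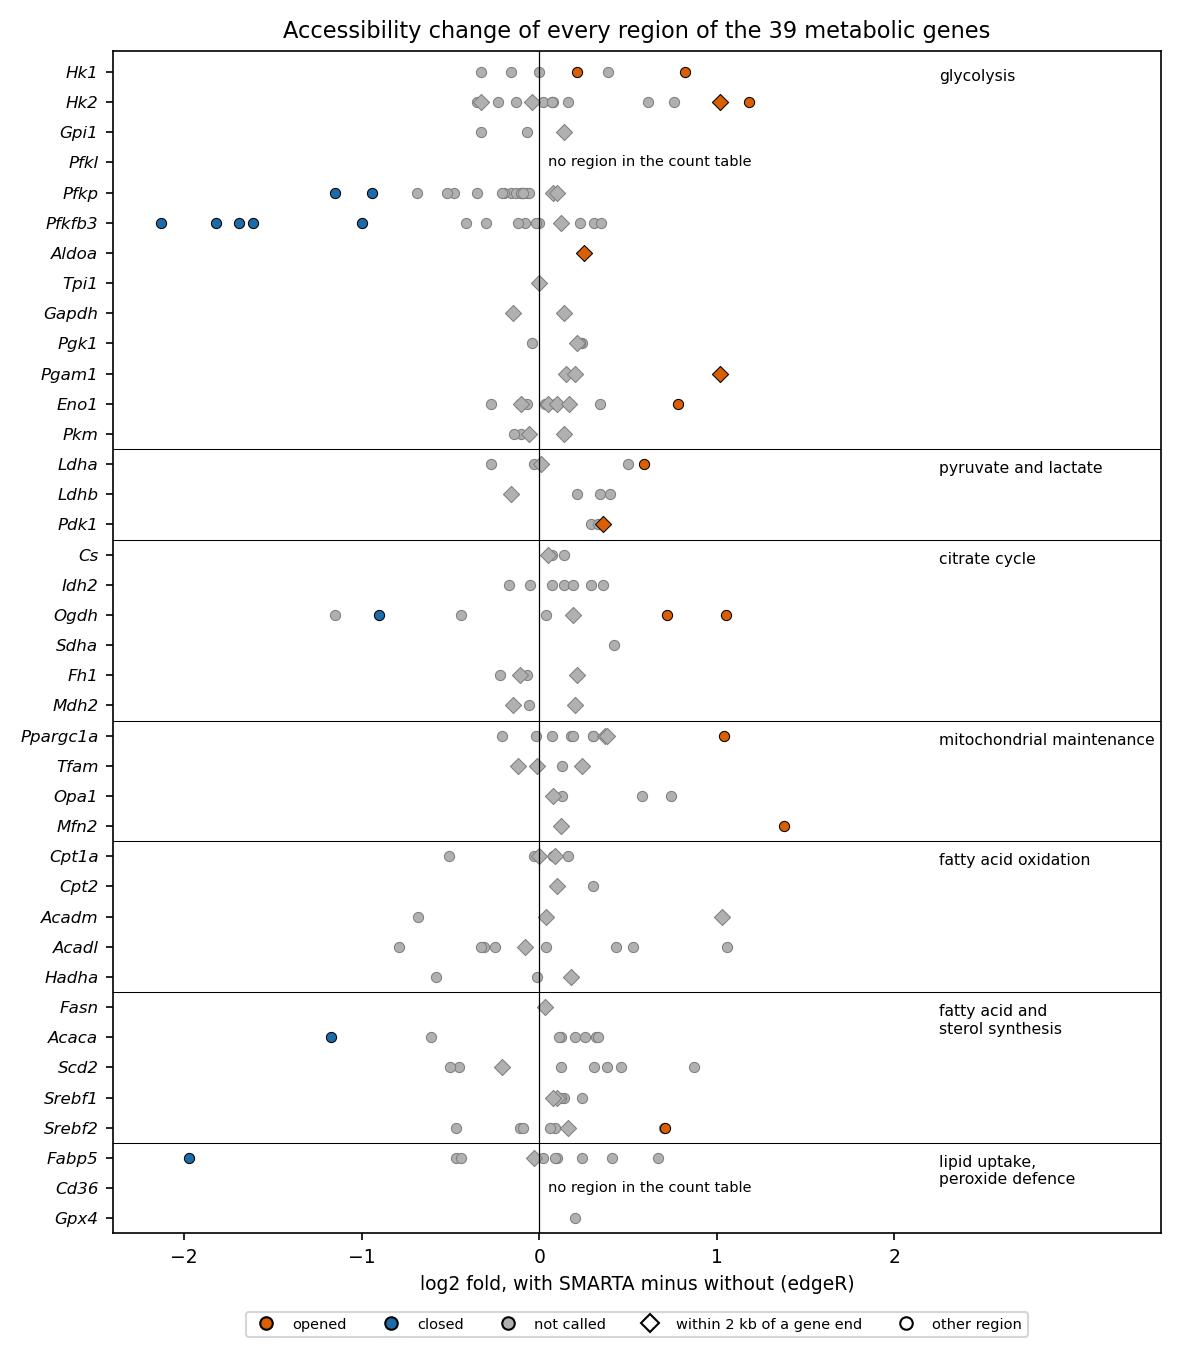
Each point is 1 of the 206 regions, placed by its log2 fold (x axis, with SMARTA minus without) in the row of its gene, with diamonds for regions within 2 kb of a gene end and colours for the call. A Pfkfb3 region, at -2.13, and the closed region of Fabp5, at -1.97, lie farthest to the left, and the opened region of Mfn2, at 1.38, farthest to the right.

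The calls were sensitive to single libraries. With 1 library left out at a time, 5 to 18 member regions opened and 7 to 10 closed. The number opened was 5, 6 and 7 without, in turn, without-SMARTA replicate 2, without-SMARTA replicate 3 and with-SMARTA replicate 3. Without the library that stood apart, with-SMARTA replicate 2, 18 opened and 10 closed. Of the 24 calls, 12 held in all 6 of these fits: all 5 of Pfkfb3, both of Hk2, and 1 each of Pfkp, Pdk1, Ppargc1a, Mfn2 and Fabp5.

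At gene ends each called region opened: the start regions of Pdk1 and Aldoa by 0.36 and 0.25, and regions of Hk2 and Pgam1 by 1.02 each on the log2 scale. Of 50 end regions in 32 genes, 4 opened, against 5.12% of all end regions, and 0 closed, against 3.92% (9.04% in either direction). At an unadjusted p under 0.05, edgeR gave 11 higher and 0 lower. No share of all end regions was taken at that cut. DESeq2 called 3 opened and 0 closed. Only 2 opened without without-SMARTA replicate 2. The median log2 fold at member ends was 0.10 and 35 of 50 were positive. The same lean was present at all 17354 end regions, with a median of 0.08 and 62.3% positive. It moved with the scaling: with loess offsets the median was 0.00 at member ends (26 of 50 positive) and 0.01 at all ends. Away from the ends, 10 of 156 member regions opened and 10 closed, against 4.49% and 12% of all such regions, with a median of 0.05. Leaving out Pfkfb3, a choice made after its calls were seen, 5 of 142 regions away from the ends closed (3.52%). The lower closed count follows from that choice.

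Nearly all of the genes had an open start. For 36 of the 39 genes, all 6 deposited peak lists held a peak within 500 bases of an annotated start (of a gene end for Scd2 and Fabp5). The exceptions were Ppargc1a, Acaca and Cd36, with 0 of 6 lists. For Ppargc1a and Acaca only 1 annotated start each was examined, and all 6 lists held a peak elsewhere in the gene. Whether these genes have other open starts was not tested. Pfkl and Sdha had start peaks in all 6 lists, with the authors' fold enrichment at 16.5 to 18.6 and 17.6 to 19.3, but these sites are not among the counted regions and were not analysed here. For Cd36, a fatty acid scavenger receptor, 0 of 6 lists held a peak anywhere in the gene.

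For 32 genes, a counted region lay within 1 kb of an annotated start. The strongest such region of each gene spanned log2 folds of -0.16 (Ldhb) to 0.36 (Pdk1). Pdk1, Aldoa and Hk1 opened and 0 closed. They were 3 of the 39 start regions of all members (7.69%). Of all start regions, 5.98% opened and 2.22% closed (8.2% in either direction). Among the 32, edgeR gave 10 higher and 0 lower at an unadjusted p under 0.05, and DESeq2 called 1 opened and 0 closed. With 1 library left out, 1 opened without without-SMARTA replicate 2 or 3 and 6 without with-SMARTA replicate 1. Folds were positive at 26 of the 32 with the main scaling, but at 18 with loess offsets. The same lean was present at all 39 member start regions (30 positive) and at all start regions, of which 67.3% were positive. In 13 of the 32 the groups did not overlap, each time with the SMARTA libraries higher. Of the 39 member start regions, 14 were higher in this way (35.9%) and 0 lower, against 27.1% and 8.05% of all start regions.

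**Figure D2:**
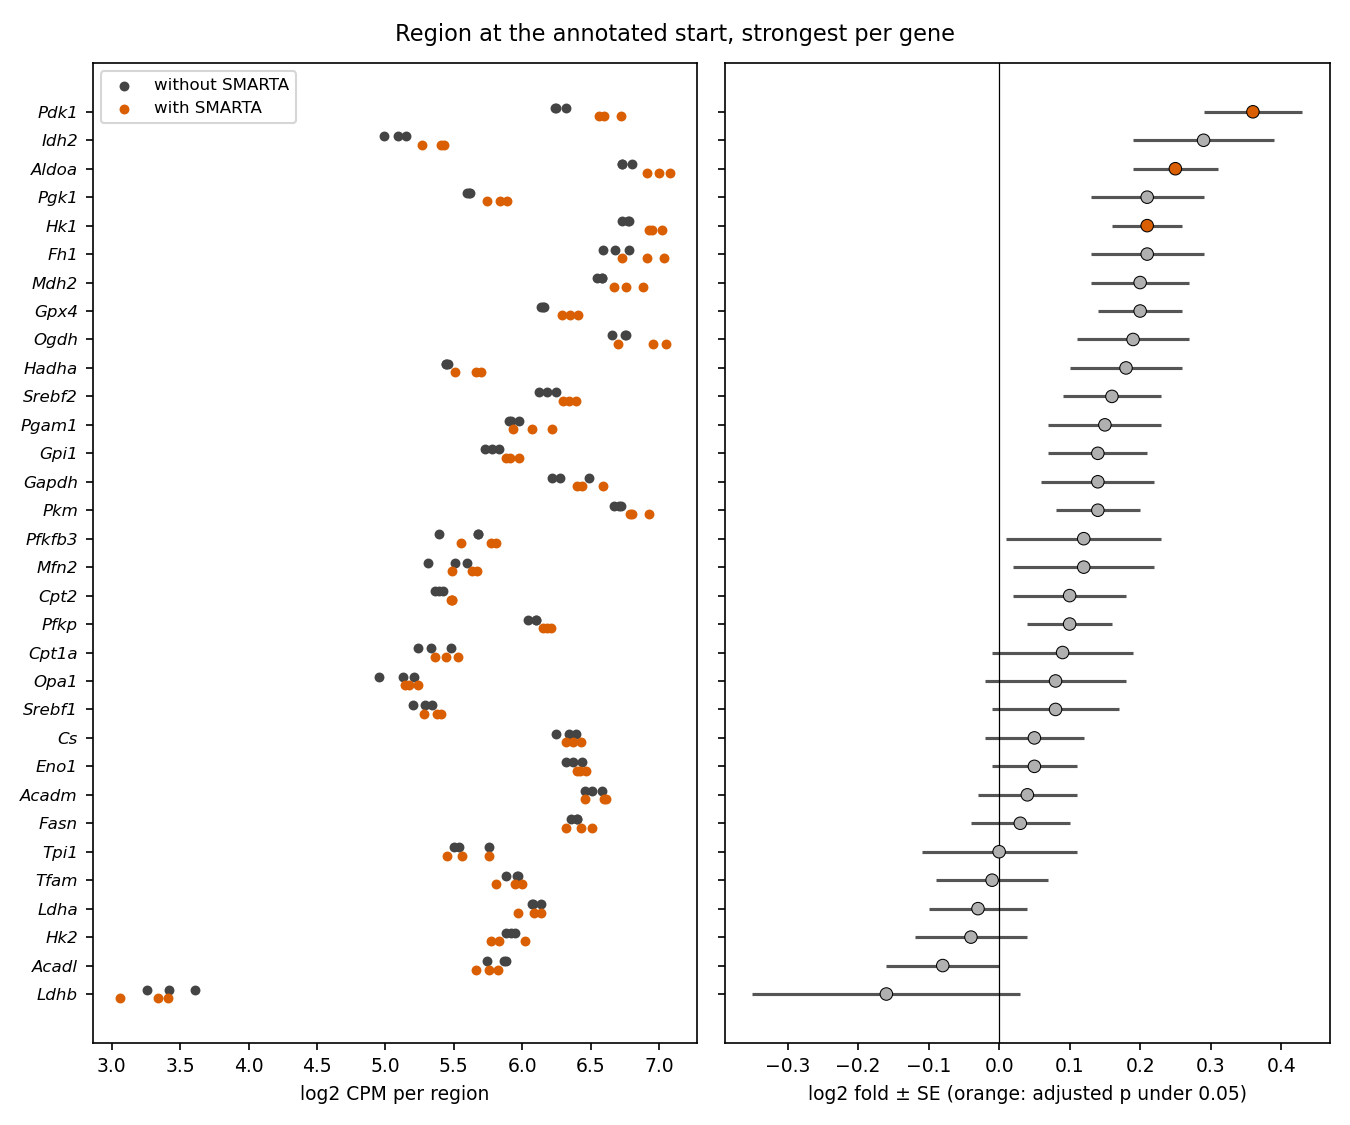
Left, log2 CPM of the strongest region within 1 kb of an annotated start in each of the 6 libraries for 32 genes; right, its log2 fold ± SE (n = 3 per group), orange where the adjusted p is under 0.05. Pdk1, at 0.36, and Idh2, at 0.29, have the largest folds, and Ldhb is the weakest start.

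In glycolysis, 85 regions in 12 genes were measured, of which 7 opened and 7 closed, with a median log2 fold of -0.04. The called share was 16.5%, near the 15.1% of all regions, with 8.24% in each direction against 4.68% opened and 10.4% closed. Leaving out 1 library at a time gave 2 to 8 opened, the lowest without without-SMARTA replicate 2 and 3 without either without-SMARTA replicate 3 or with-SMARTA replicate 3. The closed regions belonged to Pfkfb3 (5) and Pfkp (2). Without Pfkfb3, left out after its calls were seen, the group had 7 opened and 2 closed of 70 regions (10.0% and 2.86%). The lower closed count follows from that choice.

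Pfkfb3 encodes the bifunctional enzyme that makes fructose 2,6-bisphosphate, the strongest activator of phosphofructokinase, and so sets the pace of glycolysis. Of its 15 regions, 5 closed and the other 10 were not called. The largest change was at chr2:11537388-11537788 (GRCm38), inside the gene and 16.5 kb from its upstream end. Its level was 2.18, 3.22 and 2.63 without SMARTA cells and 0.65, 0.56 and 0.80 with them. All 3 libraries without SMARTA cells were higher, and the groups lay far apart. The log2 fold was -2.13 ± 0.29 (adjusted p = 0.0012). At chr2:11540453-11540853, 13.4 kb inside, the levels were 2.83, 4.15 and 3.93 against 2.08, 1.45 and 2.17 (-1.82 ± 0.34, adjusted p = 0.0058). At chr2:11547321-11547721, 6.55 kb inside, they were 3.60, 3.81 and 3.58 against 2.78, 2.62 and 2.60 (-1.0 ± 0.18, adjusted p = 0.005). These 3 sites lie in the upstream part of the gene, and in each the groups were separate.

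Farther in, the region at chr2:11512122-11512522 had levels of 1.94, 2.65 and 2.53 without and 0.86, 0.07 and 1.10 with SMARTA cells (-1.69 ± 0.29, adjusted p = 0.0042). At chr2:11515930-11516635, a region wider than the others here, the levels were 1.92, 1.80 and 1.54 against -0.32, 0.83 and -0.02 (-1.61 ± 0.30, adjusted p = 0.0062). The peak lists of all 3 libraries without SMARTA cells held a peak at this last region, and none of the 3 with them did. The lists come from the same libraries as the counts, so such patterns, here and below, are no separate evidence. All 5 regions stayed closed in each scaling, in DESeq2 and in each fit with 1 library left out.

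Both starts of Pfkfb3 were among the regions not called. The start at the gene's upstream end had levels of 5.39, 5.68 and 5.68 without and 5.81, 5.77 and 5.55 with SMARTA cells, with overlapping groups (0.12 ± 0.11, adjusted p = 0.49). The region at the start inside the gene had 5.39, 5.30 and 5.29 against 5.26, 5.11 and 5.37 (-0.08 ± 0.10, adjusted p = 0.65). Closed regions also stood next to uncalled ones: between the closed sites at 6.55 and 13.4 kb, the region at 11.8 kb had 3.35, 3.76 and 3.92 against 3.97, 4.21 and 3.97 (0.35 ± 0.19, adjusted p = 0.25). The summed counts of the regions away from the ends, set against the end sum, gave a difference of -0.41 ± 0.13 for the gene (adjusted p = 0.064), which did not pass the threshold.

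**Figure D3:**
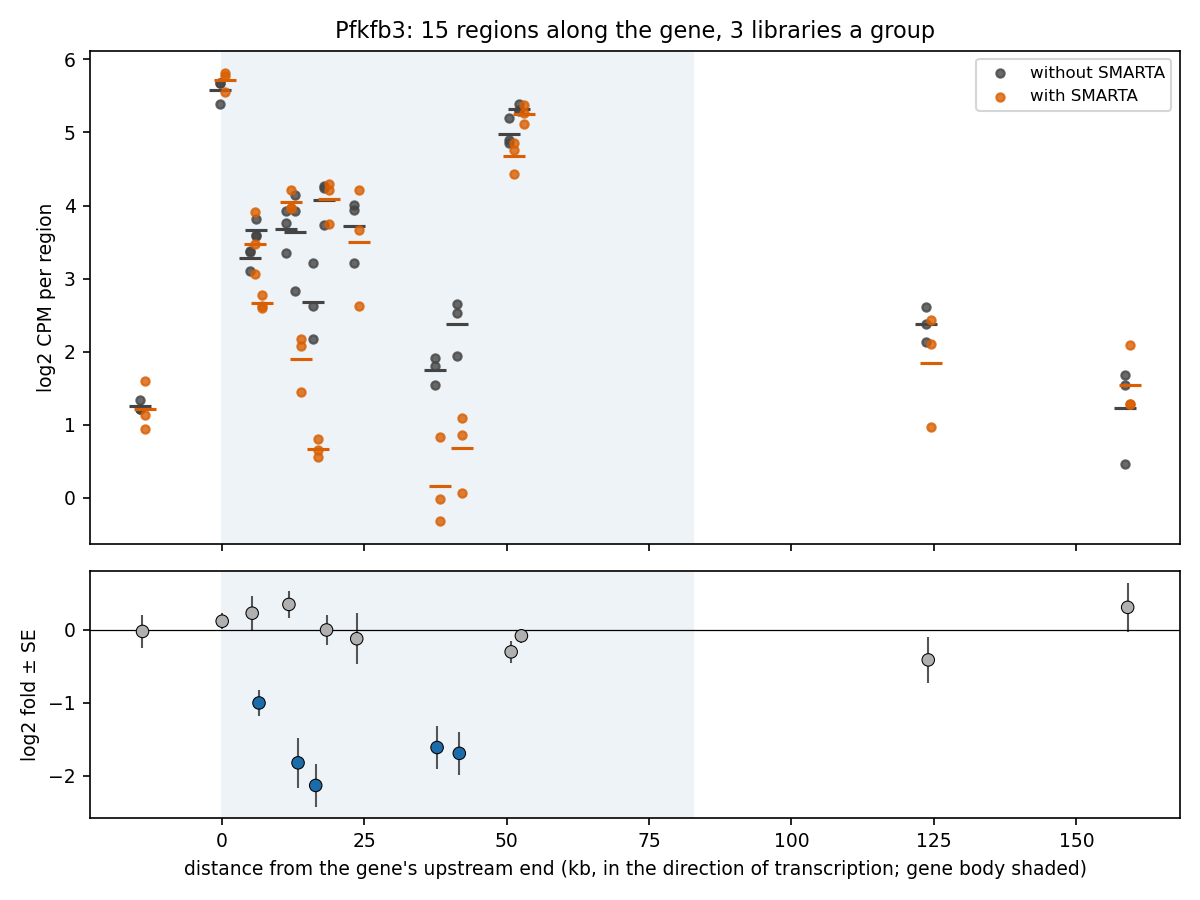
Top, log2 CPM of the 15 Pfkfb3 regions in each library against the distance from the gene's upstream end in kb (bars are group means, shading the gene body, points of the groups set slightly apart); bottom, log2 fold ± SE (n = 3 per group), blue where closed. The 5 closed regions lie between 6.55 and 41.7 kb inside the gene, among regions near 0, and both starts overlap between groups.

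Pfkp encodes the platelet-type phosphofructokinase, 1 of the enzymes that Pfkfb3's product activates. It had 20 regions. At chr13:6636524-6636924, 12.3 kb inside, levels were 4.38, 4.35 and 4.33 without and 3.69, 3.23 and 3.30 with SMARTA cells. The groups were separate and the region closed (-0.94 ± 0.17, adjusted p = 0.0057). A second region at chr13:6626698-6627098 had 2.14, 3.04 and 3.06 against 2.11, 0.78 and 1.79 (-1.15 ± 0.34, adjusted p = 0.045). There, without-SMARTA replicate 1 lay just above with-SMARTA replicate 1. The call was lost at adjusted p = 0.057 to 0.15 without replicate 2 or 3 of either group. The start of Pfkp differed by 0.10 ± 0.06 (adjusted p = 0.33).

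Hexokinases trap glucose in the cell as glucose 6-phosphate, and Hk2 is the isoform induced on T cell activation. Both opened regions of Hk2 lay upstream of the gene. At chr6:82775359-82775759, 1.1 kb upstream, levels were 2.30, 2.52 and 2.83 without and 3.62, 3.50 and 3.62 with SMARTA cells (1.02 ± 0.20, adjusted p = 0.0074). A peak was listed there in all 3 libraries with SMARTA cells and in 0 of the 3 without. At chr6:82780426-82780826, 6.17 kb upstream, levels were 1.19, 1.01 and 0.84 against 2.53, 1.84 and 2.01 (1.18 ± 0.24, adjusted p = 0.009). Every library with SMARTA cells was above every library without at both sites, while the Hk2 start itself differed by -0.04 ± 0.08 (adjusted p = 0.8).

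Hk1, the constitutive isoform, opened at the start inside the gene whose promoter is printed above. At chr10:62340131-62340531 levels were 6.73, 6.78 and 6.77 without and 6.95, 6.93 and 7.02 with SMARTA cells. The groups were separate by a narrow gap (0.21 ± 0.05, adjusted p = 0.029). The call was lost with total-count scaling (adjusted p = 0.064), DESeq2 (0.16) and loess offsets (0.83, with a log2 fold of 0.02), and at 0.062 to 0.1 without any 1 library without SMARTA cells or with-SMARTA replicate 3. A weaker region at chr10:62329176-62329576 had 2.04, 2.33 and 2.24 against 3.21, 2.60 and 3.15 (0.82 ± 0.22, adjusted p = 0.03). It kept its call only when with-SMARTA replicate 2 was the library left out (0.076 to 0.1 otherwise).

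Below the phosphofructokinase step, sugars are split, oxidised and turned into pyruvate, and single regions of Aldoa, Pgam1 and Eno1 opened there. Aldoa encodes aldolase A, which splits the sugar into triose phosphates. Its only region, at the printed start (chr7:126799085-126799485), had 6.80, 6.73 and 6.73 without and 6.91, 7.08 and 7.0 with SMARTA cells (0.25 ± 0.06, adjusted p = 0.023). The groups did not overlap, but the call was lost with total-count scaling (adjusted p = 0.08), DESeq2 (0.099) and loess offsets (0.51, with a log2 fold of 0.06), and at 0.055 to 0.1 without without-SMARTA replicate 2 or 3 or with-SMARTA replicate 3.

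Pgam1 (phosphoglycerate mutase) opened at chr19:41916859-41917259, 1.61 kb from its downstream end, with 2.55, 2.34 and 2.62 against 3.31, 3.31 and 3.86 (1.02 ± 0.22, adjusted p = 0.011). Without without-SMARTA replicate 2 the adjusted p was 0.058. Eno1 (enolase 1) opened inside the gene at chr4:150242709-150243109, with 2.74, 2.35 and 2.47 against 3.36, 3.04 and 3.45 (0.78 ± 0.20, adjusted p = 0.028). That call was lost at 0.058 to 0.12 without without-SMARTA replicate 2 or 3 or with-SMARTA replicate 1 or 3. In both genes all libraries with SMARTA cells were higher. Gpi1, Tpi1, Gapdh, Pgk1 and Pkm, which encode the isomerases, the dehydrogenase, the kinase and pyruvate kinase of the pathway, had no called region, with folds between -0.33 (Gpi1) and 0.24 (Pgk1). Several glycolytic genes, among them Gapdh, Aldoa, Pgk1, Ldha and Eno1, have processed pseudogenes, and the sources used here do not say how reads with several matches were treated.

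Pyruvate and lactate handling had 12 regions in 3 genes, of which 2 opened and 0 closed (16.7% called, near the 15.1% of all regions), with a median of 0.31. Without any 1 library without SMARTA cells, or without with-SMARTA replicate 3, 1 opened. At an unadjusted p under 0.05, edgeR gave 3 higher and 0 lower, and DESeq2 called 2 and 0. Pdk1 encodes a pyruvate dehydrogenase kinase, which holds back the entry of pyruvate into the citrate cycle and is a classic HIF target. Its start region at chr2:71873037-71873437 had 6.32, 6.25 and 6.24 without and 6.56, 6.72 and 6.60 with SMARTA cells. The groups were separate, and the log2 fold was 0.36 ± 0.07 (adjusted p = 0.0058), a 1.28-fold difference. The call held in each scaling, in DESeq2 and in all 6 fits with 1 library left out, but with loess offsets the log2 fold was 0.20 (adjusted p = 0.046). Its 3 regions had folds of 0.29 to 0.36.

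Ldha, the muscle-type lactate dehydrogenase that favours lactate formation, opened at chr7:46838791-46839191, 3.28 kb upstream of the gene. Levels there were 3.84, 4.13 and 4.06 without and 4.46, 4.64 and 4.70 with SMARTA cells (0.59 ± 0.15, adjusted p = 0.023). Adjusted p was 0.054 to 0.075 without any 1 library without SMARTA cells or with-SMARTA replicate 3. All libraries with SMARTA cells were higher at this upstream region, and the start differed by -0.03 ± 0.07 (adjusted p = 0.85). Ldhb, the heart-type subunit, had no called region.

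The citrate cycle had 25 regions in 6 genes, with 2 opened, 1 closed (12% called, against 15.1% of all regions) and a median of 0.07. Without with-SMARTA replicate 1, 4 opened, and without with-SMARTA replicate 3, 1 opened. Without any of the other 4 libraries 0 opened. All 3 calls were in Ogdh, the E1 subunit of the 2-oxoglutarate dehydrogenase complex. Inside the gene, chr11:6324193-6324593 had 0.52, 0.40 and 0.90 without and 1.34, 2.10 and 1.38 with SMARTA cells (1.05 ± 0.28, adjusted p = 0.03), and chr11:6332571-6332971 opened by 0.72 ± 0.21 (adjusted p = 0.048). Beyond the downstream end, chr11:6369721-6370121 had 1.94, 2.19 and 2.30 against 1.02, 1.63 and 1.15 (-0.90 ± 0.22, adjusted p = 0.024). Groups were separate at each of these sites, in opposite directions within 1 gene. The calls were fragile. Both opened ones held only without with-SMARTA replicate 1 (0.051 to 0.19 in the other fits). The closed one held only without without-SMARTA replicate 1 or with-SMARTA replicate 2 (0.068 to 0.1 in the others). The region that opened by 0.72 also lost its call with total-count scaling (0.065).

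Cs, Idh2, Sdha, Fh1 and Mdh2, which encode citrate synthase, the mitochondrial isocitrate dehydrogenase, the flavoprotein of succinate dehydrogenase, fumarase and the mitochondrial malate dehydrogenase, had no called region. The nearest to the threshold were the starts of Mdh2 (0.20 ± 0.07, adjusted p = 0.06) and Idh2 (0.29 ± 0.10, adjusted p = 0.073). At both starts all libraries with SMARTA cells were higher.

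Among the genes of mitochondrial maintenance, 2 of 20 regions opened and 0 closed (10.0% called, against 15.1% of all regions), with a median of 0.18. At an unadjusted p under 0.05, edgeR gave 4 higher and 0 lower, and DESeq2 called 2 and 0. Without with-SMARTA replicate 2, 5 opened. Mfn2 encodes mitofusin 2, which fuses outer mitochondrial membranes. Inside it, 2.5 kb from the downstream end, chr4:147875883-147876283 had 2.45, 2.41 and 2.47 without and 3.99, 3.98 and 3.40 with SMARTA cells. The libraries without SMARTA cells were almost equal and all below the others, and the log2 fold was 1.38 ± 0.21 (adjusted p = 0.0023), the highest of the 206 regions. The Mfn2 start differed by 0.12 ± 0.10 (adjusted p = 0.48). Mfn2 was the 1 member gene in which the change away from the ends differed from that at the ends, by 1.24 ± 0.18 (adjusted p = 0.0018). It was 1 of 27 genes tested for this, against 15.1% of all genes.

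Ppargc1a encodes PGC-1 alpha, a coactivator that drives mitochondrial biogenesis. At chr5:52125843-52126243, 10.2 kb upstream of the gene, levels were 2.31, 2.03 and 2.12 without and 2.96, 3.24 and 3.32 with SMARTA cells. The groups were separate and the log2 fold was 1.04 ± 0.19 (adjusted p = 0.0061). Close to the gene's upstream end, at 0.197 kb, levels were 4.07, 3.91 and 4.05 against 4.43, 4.11 and 4.59, also separate, but not called (0.38 ± 0.16, adjusted p = 0.15). Tfam, the factor that packages and transcribes mitochondrial DNA, and Opa1, which fuses inner membranes, had no called region, with folds from -0.12 (Tfam) to 0.74 (Opa1).

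Fatty acid oxidation was the group with no call: 0 of 23 regions in Cpt1a, Cpt2, Acadm, Acadl and Hadha opened or closed, against 15.1% of all regions, with a median of 0.04. At an unadjusted p under 0.05, edgeR gave 2 higher and 3 lower, and DESeq2 called 0. Leaving out 1 library gave at most 2 opened (without with-SMARTA replicate 2) and 1 closed (without without-SMARTA replicate 3). Cpt1a and Cpt2 encode the carnitine palmitoyltransferases that carry long-chain fatty acids into mitochondria, and their folds lay between -0.51 (Cpt1a) and 0.30 (Cpt2). Near the threshold was an end region of Acadm, the medium-chain acyl-CoA dehydrogenase. It had 0.57, -0.35 and 0.11 without and 0.90, 0.88 and 1.44 with SMARTA cells (1.03 ± 0.32, adjusted p = 0.056), with separate groups. Around Acadl, the long-chain enzyme, intergenic regions 15.2 and 18.6 kb upstream differed by -0.79 ± 0.26 (adjusted p = 0.064) and 1.06 ± 0.38 (adjusted p = 0.089).

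Fatty acid and sterol synthesis had 30 regions in 5 genes, with 1 opened, 1 closed (6.67% called, against 15.1% of all regions) and a median of 0.12. Srebf2 encodes SREBP2, the transcription factor for cholesterol synthesis and uptake. Inside it, chr15:82156334-82156734 had 2.64, 2.53 and 3.01 without and 3.59, 3.28 and 3.44 with SMARTA cells (0.71 ± 0.20, adjusted p = 0.04). All libraries with SMARTA cells were higher, but the call held only without with-SMARTA replicate 2 (0.054 to 0.16 in the others). A second Srebf2 region differed by 0.70 and stayed just outside the threshold (adjusted p = 0.057).

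Acaca encodes acetyl-CoA carboxylase 1, which makes malonyl-CoA. Deep inside it, 118 kb from its nearest end, chr11:84247350-84247750 had 1.37, 1.04 and 0.58 without and -0.07, -0.01 and -0.13 with SMARTA cells (-1.17 ± 0.30, adjusted p = 0.027). The peak lists held a peak there in all 3 libraries without SMARTA cells and 0 of the 3 with. The call was lost at 0.057 to 0.1 without without-SMARTA replicate 1 or 2 or with-SMARTA replicate 1 or 3, and with loess offsets (0.054). The strongest Acaca region, 50.0 kb inside the gene, had 6.35, 6.45 and 6.49 against 6.41, 6.73 and 6.47, with overlapping groups (0.11 ± 0.09, adjusted p = 0.45). Fasn (fatty acid synthase), Scd2 (a stearoyl-CoA desaturase) and Srebf1 (SREBP1) had no called region. A Scd2 region 4.12 kb beyond the gene had a peak in all 3 libraries with SMARTA cells and 0 of the 3 without, and differed by 0.87 ± 0.34 without passing the threshold.

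For lipid uptake and lipid peroxide defence, 11 regions in 2 genes gave 1 closed and 0 opened (9.09% called, against 15.1% of all regions), with a median of 0.09. Without with-SMARTA replicate 1, 1 opened. At an unadjusted p under 0.05, edgeR gave 2 higher and 2 lower, and DESeq2 called 0 opened and 1 closed. Fabp5 encodes a fatty acid binding protein of lymphocytes and skin. Its closed region, chr3:9932803-9933488, is wider than 400 bases, intergenic and 79.4 kb from the gene. Levels there were 1.42, 1.52 and 1.29 without and -0.74, 0.23 and -0.89 with SMARTA cells. The groups were separate, and the log2 fold was -1.97 ± 0.33 (adjusted p = 0.0038). As at the Pfkfb3 and Acaca sites, all 3 lists without SMARTA cells and 0 of the 3 with held a peak. Of the 206 member regions, 3 had this pattern and 2 the reverse. The share of all regions with such patterns was not counted. At this distance the assignment to Fabp5 rests on nearness alone. Gpx4, the enzyme that reduces lipid peroxides and so guards against ferroptosis, had 1 region, at its start, which differed by 0.20 ± 0.06 (adjusted p = 0.061).

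**Figure D4:**
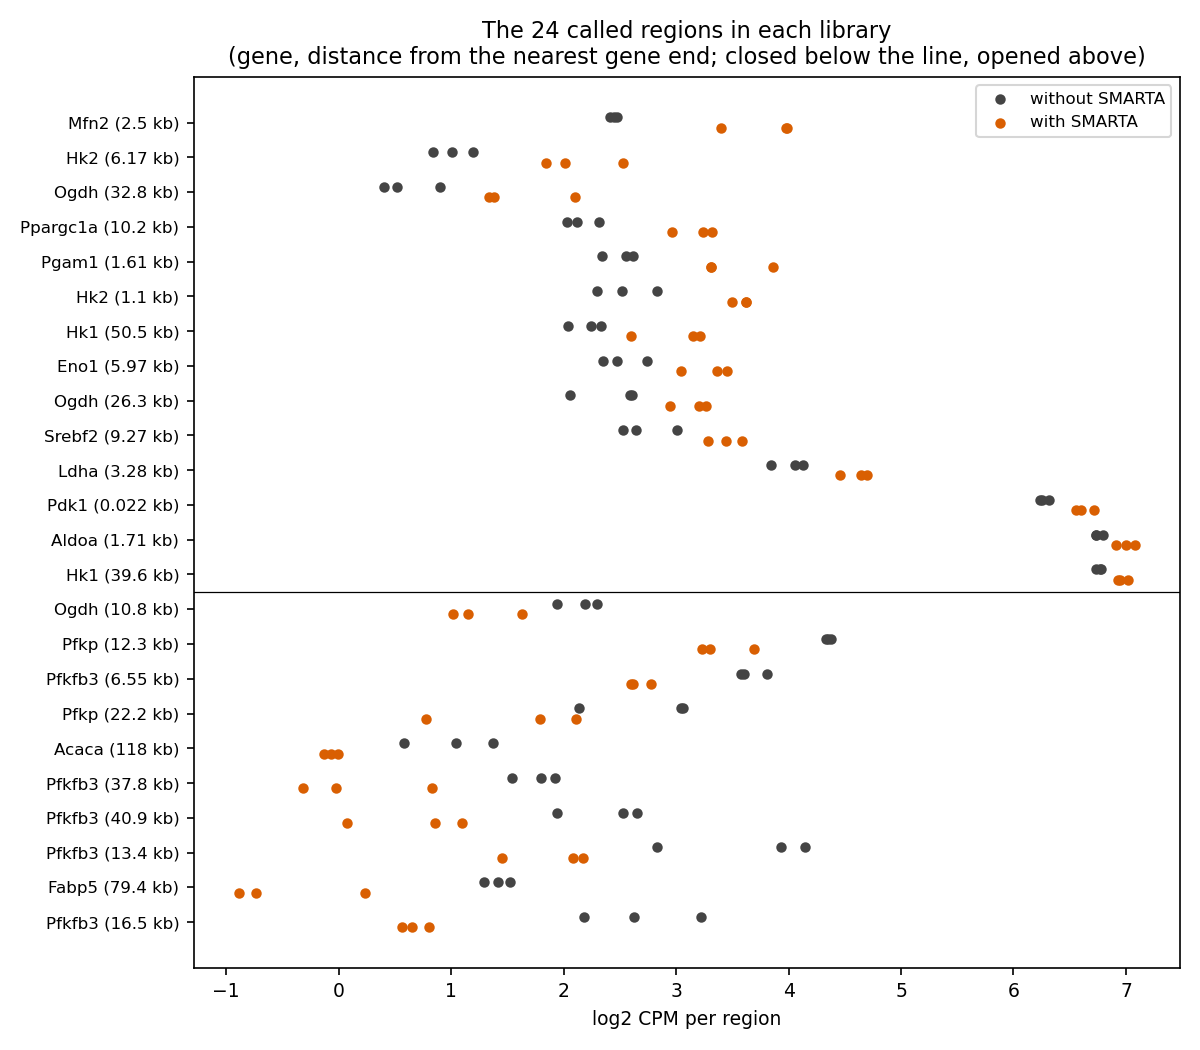
Log2 CPM of the 24 called regions in each of the 6 libraries, labelled by gene and distance from the nearest gene end, with the 14 opened above the line and the 10 closed below. Start regions of Pdk1, Aldoa and Hk1 lie near 6 to 7 with narrow gaps between groups, the closed regions lie lower, and the gap is narrowest at the Pfkp region 22.2 kb from a gene end.

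Summed by gene, few members changed. The end regions of 2 of 32 genes rose, against 9.2% of all genes tested. They were Pdk1, by 0.36 ± 0.07 (adjusted p = 0.0078), and Aldoa, by 0.25 ± 0.06 (adjusted p = 0.034). In both genes the sum holds 1 region, the start region given above, so it is no separate result. Loess offsets were not run on sums. The sum of other regions changed in 1 of 32 genes, against 14.4% of all: Mfn2, by 1.38 ± 0.18 (adjusted p = 0.0012), where it holds a single region. Leaving out 1 library, the end sums of 1 to 5 genes were called: 1 without any 1 library without SMARTA cells and 5 without with-SMARTA replicate 1. The other sums were called in 2 genes without with-SMARTA replicate 1 and 3 without with-SMARTA replicate 2. The difference between both sums was called in 2 genes without with-SMARTA replicate 1 or 2, and in 3 without with-SMARTA replicate 3.

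The same pathways were read in 114 further genes, of which 108 had a region. Of their 407 regions, 19 opened and 32 closed (12.5%, against 15.1% of all regions), with a median of 0.05. Called regions made up 12.7% of 55 in the glycolysis list, 13.7% of 51 in the pyruvate list, 19.0% of 42 in the citrate cycle list and 15.5% of 58 in the mitochondrial list. They made up 9.52% of 42 in the oxidation list, 8.0% of 100 in the synthesis list and 13.6% of 59 in the lipid uptake list. Acsl5, an acyl-CoA synthetase that activates long-chain fatty acids, had 4 of 6 regions closed. Its strongest change was -2.17 ± 0.25 (adjusted p = 0.00058), from 3.18 ± 0.41 (SD, n = 3) without to 1.08 ± 0.19 (SD, n = 3) with SMARTA cells. Mdh1, the cytosolic malate dehydrogenase, had 2 of 3 regions closed. The stronger fell from 1.76 ± 0.45 to 0.07 ± 0.09 (SD, n = 3 each; -1.84 ± 0.28, adjusted p = 0.0023). Fbp1, which runs the phosphofructokinase step backwards in gluconeogenesis, had 1 of 3 regions opened (0.79 ± 0.14, adjusted p = 0.0046).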

How the data were processed

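ATAC-seq libraries of 6 samples, 3 per group, were analysed from 1 table of whole-number read counts per region, deposited by the authors without normalization, and from 6 peak lists. The lists were deposited 1 per library and give, per the file columns, the authors' fold enrichment (a ratio over background) and a −log10 q-value for each peak. Per the submitters' processing notes, the build was GRCm38 and the tools, in no stated role, were MACS2 2.1.1, DiffBind 3.4.11, Picard 2.18.9, SAMtools 1.8 and BWA 0.7.17. The sources used here do not give duplicate removal, blacklists or any shift of reads.

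Regions were assigned to protein-coding genes by their midpoint, with gene ends from RefSeq. Exons and introns were not told apart. Counts were fitted with edgeR 4.0.16 (R 4.3.3; TMM, filterByExpr, quasi-likelihood test without covariates, Benjamini-Hochberg, threshold 0.05) on all regions. Sums per gene were fitted in the same way, and their difference with a sample term. Levels are log2 CPM with a prior count of 2. The code was tested on simulated data. Alternatives were DESeq2 1.42.0, total-count scaling, loess offsets from limma 3.58.1, no filter, a replicate block, other windows and leaving out each library. Assignment by any overlap, start regions within 1 kb and counts without Pfkfb3 were added after seeing the data.

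By plan, per-library values were for members with a call, at the region with the smallest p in each direction. A main end region was added where a result turned on it. Further regions, among them those of Pfkfb3, Hk1, Hk2, Pfkp, Acaca and Acadm, were printed beyond this plan. Of the other pathway genes, at most the 2 per list with the most calls could be named, and those named kept their counts within 1.5 times when any library was left out. Promoters were to be printed for members whose main end region passed. The searched motifs and the 2 marked in capitals were settled after the matches were seen. Members, lists and roles were chosen with earlier results of these data known.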

Additional observations from a re-analysis of the deposited data

How the results depend on the processing

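The 14 opened and 10 closed regions became 11 and 10 with total-count scaling, 13 and 10 with DESeq2, 15 and 10 with loess offsets, and stayed 14 and 10 without a filter and with assignment by any overlap. With 1 library left out, opened regions ranged from 5 to 18. Opened end regions ranged from 2 to 6 and were 1 with a 1 kb window at gene ends. Opened regions away from the ends ranged from 3 to 12. Closed ones there were 5 without the regions of Pfkfb3. Genes with changed end sums were 1 with total-count scaling and 4 with DESeq2, and 1 to 5 with 1 library left out. Changed other sums were 2 with total-count scaling and 1 to 3 with 1 library left out, and changed differences 1 to 3. Closed regions outnumbered opened ones without without-SMARTA replicate 2 (5 opened, 7 closed) and replicate 3 (6 opened, 9 closed). With loess offsets, 18 of 32 strongest start regions had a positive fold, against 26. With the replicate number as a block, 11 opened and 8 closed, and 6 genes had changed end sums. Calls lost were 1 each in Hk1, Pfkp, Ogdh, Acaca and Srebf2. Deviations of same-numbered libraries correlated at -0.02, -0.0776 and 0.0764, and not every library correlated best with its own number. With 3 libraries per group these values cannot settle whether same-numbered libraries were paired. The labels do not state a pairing. Depth limits the weak regions: the median region held 62 to 114 reads, and SE was 0.05 to 0.07 at the 3 opened starts but 0.18 to 0.34 at the 5 closed Pfkfb3 regions. Loess offsets moved the median of all end regions from 0.08 to 0.01, so a small common rise at starts cannot be told apart from scaling.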
